A study of Mus musculus with 6 samples.

Results

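The 33 genes described here carry glucose through glycolysis to lactate or belong to the transcriptional response to low oxygen. They were taken by gene symbol from the 6 deposited count tables, which list 19865 genes, and all 33 symbols had a row. They comprise 2 glucose transporters (Slc2a1, Slc2a3), 17 genes of hexokinase, the later glycolytic steps and lactate dehydrogenase, 2 lactate transporters (Slc16a1, Slc16a3) and 2 pyruvate dehydrogenase kinases (Pdk1, Pdk3). The others are 2 regulators of phosphofructokinase (Pfkfb3, Pfkfb4) and 8 genes of the hypoxia response (Bnip3, Bnip3l, Egln1, Egln3, Ankrd37, Adm, Ndrg1, Hif1a).

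The study concerned the effect of an active form of Srebf1c, a transcription factor of lipid synthesis, on fibroblasts in injured lung. Primary lung fibroblasts of Col1a2-GFP transgenic mice (C57BL/6 strain), in which a Col1a2 promoter drives the green fluorescent reporter, were transduced with retrovirus. The control group received the vector alone and the trSrebf1 group received the active, truncated Srebf1c, both with human LNGFR as surface marker. All recipients were C57BL/6 mice given bleomycin at 2 mg/kg, which injures the lung. Fibroblasts were placed in the airways on day 5 after bleomycin, doxycycline was started on day 7 to induce trSrebf1, and cells were recovered on day 10. Sorted cells were negative for propidium iodide and for CD31, CD45, EpCAM, CD146 and Ter119, and positive for GFP and LNGFR. Each group had 3 libraries of 3′SAGE-seq, which counts tags near the 3′ end of polyadenylated RNA, from 10000 cells each. The labels give neither the age of the mice nor a separate animal or culture for each library, so p-values measure only the spread between libraries, which may be technical.

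Library totals ran from 3675146 to 4688196 counts. Srebf1, given in CPM (counts scaled to the library's size with TMM factors), stood at 8.35, 5.13 and 7.75 in control libraries and 28.5, 31.1 and 24.5 in trSrebf1 libraries, and tags of the introduced and the native gene could not be told apart. All 8 fibroblast markers were detected in both groups, summing to 42291.2 to 54513.3 CPM in control and 30502.1 to 35178.3 CPM in trSrebf1 libraries, and 7 of the 8 were lower with trSrebf1. Markers of macrophages, lymphocytes, endothelium and red cells each summed to at most 2.87 CPM in any library. Of their listed genes, 5 of 9, 2 of 6, 5 of 6 and 5 of 7 were measured. Neutrophil markers (2 of 5 measured, with no row for S100a8, S100a9 and Ly6g) summed to at most 10.4 CPM. Epithelial markers (8 of 8 measured) summed to at most 22.5 CPM. Pericyte and smooth muscle markers did not move together. Of 6 tested, Cspg4 (16.3 to 119.9 CPM in the mean) and Des were higher, and Cnn1, Kcnj8 and Myh11 lower, and their list summed to 112.9 to 121.1 CPM in control and 209.5 to 244.4 CPM in trSrebf1 libraries. The 12 immediate early genes, which also respond to the handling of cells, summed to 24627.6 to 28580.7 and 16696.0 to 19393.4 CPM. The part of these marker changes in the results given here was not tested.

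Glycolysis splits glucose into pyruvate in the cytosol. Glucose enters through facilitative transporters, is trapped by hexokinase, is rearranged and cleaved by the upper enzymes, and yields ATP in the lower ones. Lactate dehydrogenase then interconverts pyruvate and lactate, and pyruvate dehydrogenase kinases hold pyruvate back from the mitochondria. Hypoxia-inducible factor (HIF) is a dimer of an oxygen-regulated alpha subunit, such as Hif1a, and Arnt, and many glycolytic genes are among its classical targets. In fibrotic lung, raised glycolysis and lactate output are known features of activated fibroblasts.

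The upper and lower enzymes that passed the test were higher with trSrebf1, as were Hk1 and Pfkfb4. Slc2a1, Hk2, both lactate dehydrogenase genes and Adm and Egln1 of the hypoxia genes were lower. Among tested genes the widest differences were in Pfkfb4, at 8.14 times its control level, and Adm, 9.70-fold lower than in control. Of the 33 genes, 29 had enough counts for the test, and Slc2a3, Aldoc, Egln3 and Ankrd37 did not. Among the 29, 8 were higher (27.6%) and 6 lower (20.7%) at an adjusted p under 0.05 in edgeR's quasi-likelihood test, against 17.2% higher and 13% lower among all 10194 genes tested. The share past the threshold in either direction (called genes) was 48.3%, beside 30.2% for all genes. The median log2 fold change of the 29 was -0.05, beside -0.01 for all genes, and the median of its absolute size was 0.46, beside 0.39. No overlap between control and trSrebf1 values was seen in 18 of the 29, of which 8 were higher and 10 lower with trSrebf1. Among all genes tested the share was 43.4%, with 2356 genes higher and 2064 lower. Because each library pools many cells, fewer cells using a gene and less RNA per cell cannot be told apart.

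**Figure D1:**
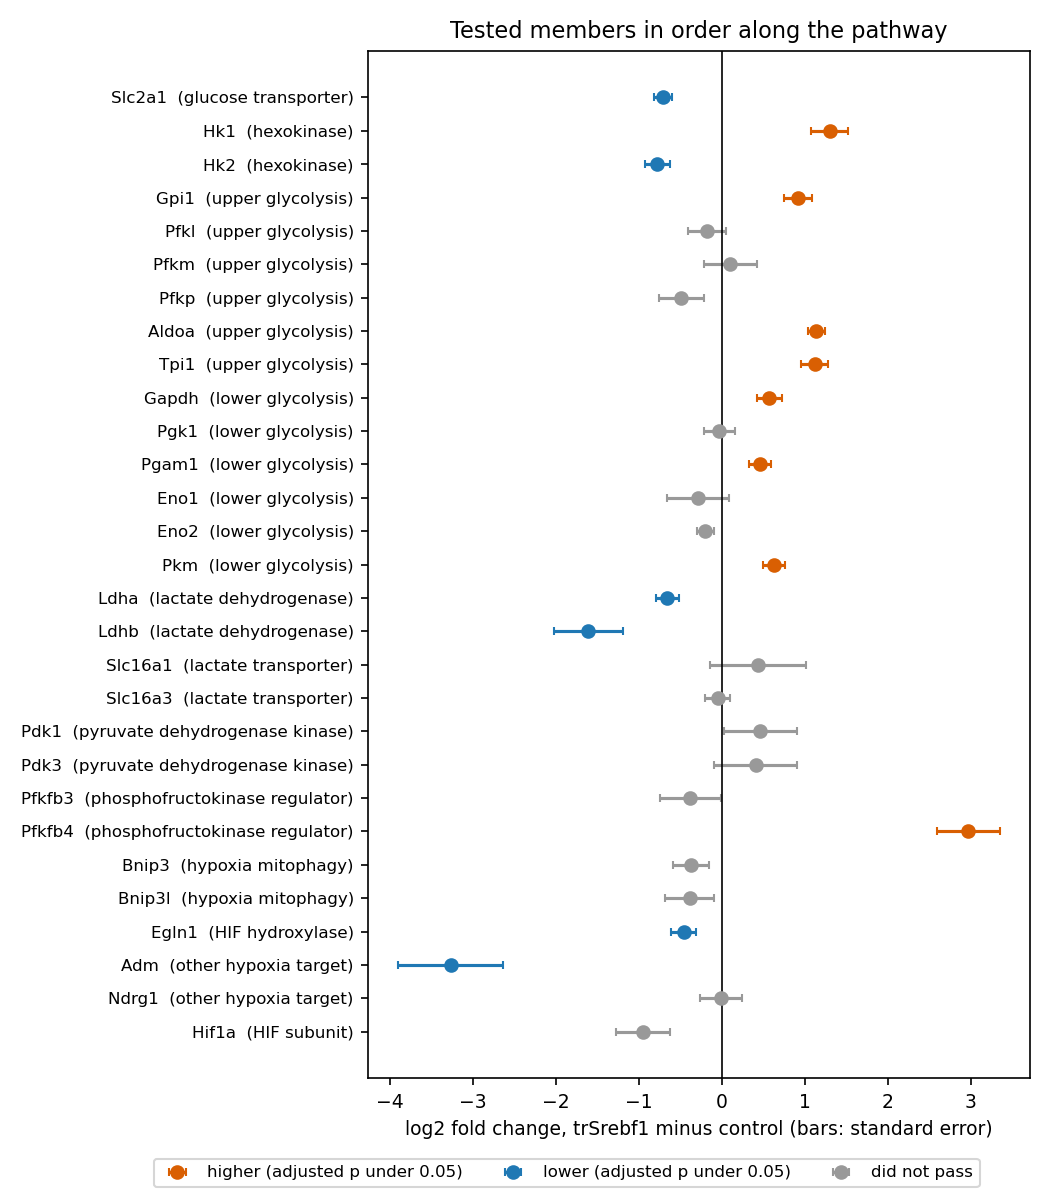
Log2 fold change (trSrebf1 minus control, x axis) of the 29 tested genes, ordered by role, with bars of 1 standard error and colours for the call at an adjusted p of 0.05. Values run from -3.27 for Adm to 2.97 for Pfkfb4, and calls in both directions lie within the glycolytic genes.

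Promoter sequence is shown first for 8 genes, picked after their differences and their matches to a HIF core were seen. They are not the 8 genes with the widest differences. Called genes with log2 fold changes larger in size than that of Pkm (0.63) were left out, such as Ldhb (-1.61), Hk1 (1.3), Tpi1 (1.12) and Gpi1 (0.92). The windows are 250 bases before to 50 bases after an annotated start, from RefSeq on GRCm38.p6, written 5′ to 3′ on the gene's strand. Aldoa has 3 such windows and Aldoc, Pkm and Ldha have 2 each, and for these a window with matches was picked after the search. An Aldoa window and the other Pkm window hold no match of the HIF core, and the other Ldha window holds 2. Capitals mark matches on either strand of the HIF core (ACGTG or GCGTG), of the palindromic E-box (CACGTG, which holds ACGTG on both strands) or of 1 form of the sterol regulatory element (TCACNCCAC), the kind of element that Srebf proteins bind. Aldoa (chr7:126799129-126799428, minus strand), Aldoc (chr11:78322823-78323122, plus), Pkm (chr9:59656977-59657276, plus) and Pfkfb4 (chr9:108991652-108991951, plus) had higher counts with trSrebf1, though Aldoc was too low to test. Slc2a1 (chr4:119108495-119108794, plus), Hk2 (chr6:82774405-82774704, minus), Ldha (chr7:46845554-46845853, plus) and Adm (chr7:110627407-110627706, plus) were lower.
Aldoa: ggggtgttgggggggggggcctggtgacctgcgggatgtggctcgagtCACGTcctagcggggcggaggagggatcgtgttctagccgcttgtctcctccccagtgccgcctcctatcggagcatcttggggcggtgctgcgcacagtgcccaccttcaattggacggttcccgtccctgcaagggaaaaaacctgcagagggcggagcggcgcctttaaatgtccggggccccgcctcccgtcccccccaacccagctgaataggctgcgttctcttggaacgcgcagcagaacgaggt
Aldoc: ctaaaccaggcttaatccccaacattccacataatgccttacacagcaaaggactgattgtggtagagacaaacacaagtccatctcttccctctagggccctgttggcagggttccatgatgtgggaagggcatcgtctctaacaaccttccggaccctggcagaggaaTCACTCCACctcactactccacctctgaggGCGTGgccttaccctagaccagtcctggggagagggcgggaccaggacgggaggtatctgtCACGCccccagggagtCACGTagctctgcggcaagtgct
Pkm: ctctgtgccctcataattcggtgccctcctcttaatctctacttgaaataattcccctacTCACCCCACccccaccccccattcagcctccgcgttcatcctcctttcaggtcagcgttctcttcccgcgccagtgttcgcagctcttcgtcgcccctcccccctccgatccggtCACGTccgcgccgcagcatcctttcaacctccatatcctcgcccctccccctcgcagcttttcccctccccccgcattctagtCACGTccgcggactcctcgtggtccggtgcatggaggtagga
Pfkfb4: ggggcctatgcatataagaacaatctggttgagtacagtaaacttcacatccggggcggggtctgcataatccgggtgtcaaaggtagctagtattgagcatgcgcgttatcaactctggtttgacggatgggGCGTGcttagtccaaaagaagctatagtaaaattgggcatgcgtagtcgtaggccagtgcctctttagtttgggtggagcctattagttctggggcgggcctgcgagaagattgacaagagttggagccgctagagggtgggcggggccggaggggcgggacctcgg
Slc2a1: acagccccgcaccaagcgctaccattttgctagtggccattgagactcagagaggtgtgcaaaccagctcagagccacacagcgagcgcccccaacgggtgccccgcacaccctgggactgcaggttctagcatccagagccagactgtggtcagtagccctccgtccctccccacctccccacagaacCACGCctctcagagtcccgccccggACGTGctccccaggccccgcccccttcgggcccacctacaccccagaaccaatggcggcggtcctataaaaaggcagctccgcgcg
Hk2: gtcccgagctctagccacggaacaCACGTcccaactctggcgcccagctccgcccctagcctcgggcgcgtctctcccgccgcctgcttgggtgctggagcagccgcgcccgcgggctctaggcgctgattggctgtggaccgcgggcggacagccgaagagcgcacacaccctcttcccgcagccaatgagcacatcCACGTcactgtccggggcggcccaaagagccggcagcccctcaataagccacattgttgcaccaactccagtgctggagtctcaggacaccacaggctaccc
Ldha: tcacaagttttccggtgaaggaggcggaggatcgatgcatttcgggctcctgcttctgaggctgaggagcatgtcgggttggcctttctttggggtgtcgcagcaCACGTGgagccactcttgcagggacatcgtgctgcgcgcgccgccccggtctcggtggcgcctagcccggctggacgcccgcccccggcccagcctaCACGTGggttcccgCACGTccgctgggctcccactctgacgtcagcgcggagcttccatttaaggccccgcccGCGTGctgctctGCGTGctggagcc
Adm: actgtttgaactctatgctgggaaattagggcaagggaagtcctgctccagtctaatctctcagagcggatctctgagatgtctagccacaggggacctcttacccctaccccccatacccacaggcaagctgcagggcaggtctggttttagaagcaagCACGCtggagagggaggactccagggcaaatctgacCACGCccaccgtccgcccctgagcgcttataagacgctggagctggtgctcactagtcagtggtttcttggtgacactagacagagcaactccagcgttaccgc

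RefSeq windows were found for 30 of the 33 symbols, with 43 windows in all. The HIF core stood in 35 of these 43 windows (81.4%) and in 43.8% of all 32851 windows of the same length. The core itself holds a CG dinucleotide. Among windows with at least 10 CG dinucleotides it stood in 30 of 34 member windows (88.2%) and in 68.4% of all 14281 windows. Counted by gene, a window with the core was present for 27 of the 30 genes, beside 46.7% of all 27025 symbols. Among called genes it was present for 6 of the 8 that were higher (all but Gpi1 and Tpi1) and for all 6 that were lower. It was present for 12 of the 13 uncalled genes with a window. Genes of both directions thus carried the core, and the Ldha window held 7 matches of it and 2 of CACGTG. The sterol element stood in 2 member windows (4.65%), those of Aldoc and Pkm shown above, and in 1.24% of all windows. A match describes letters in a window and not a bound site.

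Entry of glucose was represented by Slc2a1 (Glut1, chr4:119108711-119137983, plus strand), the main glucose transporter of most proliferating cells. Its CPM was 379.9, 299.6 and 320.6 in control and 198.0, 213.9 and 198.2 in trSrebf1 libraries. Every trSrebf1 library lay below every control library. The means were 333.4 ± 41.6 and 203.3 ± 9.12 CPM (SD, n = 3 each), a 1.64-fold lower level, and the log2 fold change was -0.71 (SE 0.11, adjusted p = 9.75e-05, edgeR). Slc2a3, a high-affinity transporter, had at most 4 counts in any library and was not tested.

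Hexokinase, which phosphorylates glucose, changed in opposite directions in its 2 genes. Hk1 (chr10:62268855-62379908, minus), the widely expressed form, stood at 12.0, 8.99 and 8.22 CPM in control and 26.8, 23.2 and 21.8 CPM in trSrebf1 libraries. No library of one group reached the range of the other, and the rise was 2.46-fold (log2 fold change 1.30, SE 0.22, adjusted p = 1.63e-04). Hk2 (chr6:82725025-82774454, minus), the inducible form and a classical HIF target, stood at 98.9, 82.7 and 76.5 CPM in control and 48.2, 56.6 and 45.9 CPM in trSrebf1 libraries. It too separated the groups completely, and its level was 1.71-fold lower (log2 fold change -0.78, SE 0.15, adjusted p = 4.77e-04).

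Set against each other within a library, Hk1 made up 10.8, 9.8 and 9.7% of the CPM of both genes in control and 35.7, 29.1 and 32.2% in trSrebf1 libraries. These are shares of 3′ tags, which are not scaled by transcript length. The log2 ratio of Hk1 to Hk2 (each CPM plus 0.5) averaged -3.09 ± 0.09 (SD, n = 3) in control and -1.05 ± 0.21 (SD, n = 3) with trSrebf1. For the difference of 2.04 an exact permutation test (two-sided) gave p = 0.1, its lowest possible value with 3 libraries in each group, and 0.35 after Benjamini-Hochberg adjustment over the 7 gene pairs compared. In these pairs the groups' ratios did not overlap for Hk1 with Hk2 and for Ldha with Ldhb, and overlapped for the other 5.

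**Figure D2:**
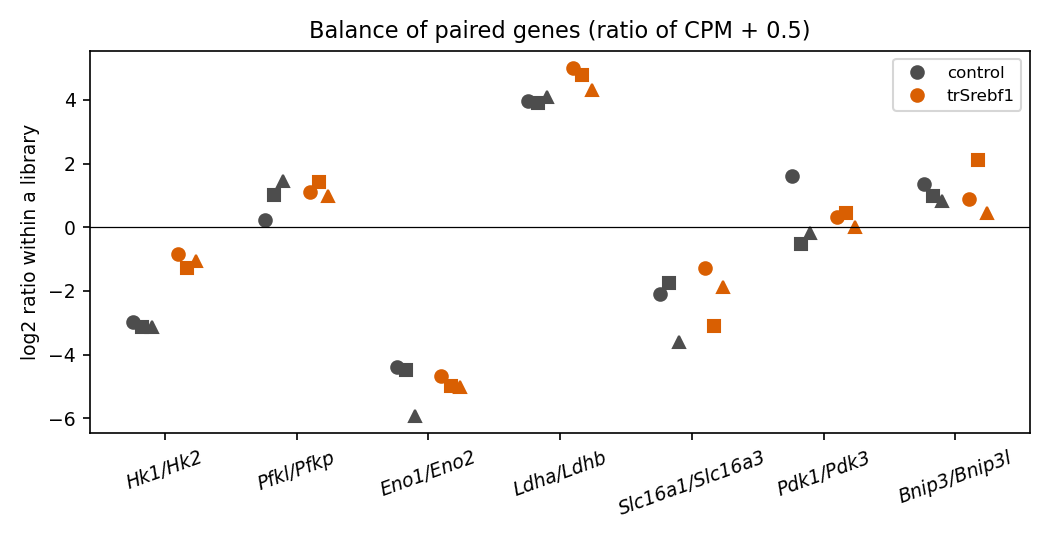
Log2 ratio of the CPM (plus 0.5) of 2 genes of the same step (y axis) in each library, for the 7 pairs with both genes tested, with 1 point per library and marker shapes for replicates 1, 2 and 3. The Hk1 to Hk2 ratio moves from between -3.14 and -2.99 in control to between -1.27 and -0.84 in trSrebf1 libraries, and Ldha to Ldhb is the other pair without overlap.

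In the upper steps, 3 of 6 tested genes rose and none fell (50% called, beside 30.2% of all genes). They were Aldoa, Tpi1 and Gpi1. Aldoa (chr7:126795234-126800751, minus) encodes the aldolase that cleaves fructose 1,6-bisphosphate. Aldoa measured 2434.5, 1992.0 and 2135.0 CPM in control and 4547.4, 4736.6 and 5155.1 CPM in trSrebf1 libraries. The lowest trSrebf1 library was far above the highest control library. The mean was 2187.2 ± 225.8 CPM in control (SD, n = 3) and 4813.0 ± 310.9 CPM with trSrebf1 (SD, n = 3), a 2.2-fold rise, and the log2 fold change was 1.14 (SE 0.10, adjusted p = 1.6e-07).

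Aldoc, the aldolase best known from brain, was nearly silent in control libraries, with 0, 2 and 0 counts, and had 11, 6 and 13 counts in trSrebf1 libraries. It fell under the count filter, so the main test left it out. Its summed counts, relative to library size, differed 13.8-fold, with a 95% exact interval from 3.50 to 119 that covers counting error only.

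Gpi1 (chr7:34201330-34230336, minus), which turns glucose 6-phosphate into fructose 6-phosphate, read 19.8, 16.2 and 17.6 CPM in control and 33.6, 35.1 and 32.5 CPM in trSrebf1 libraries. It rose 1.89-fold without overlap (log2 fold change 0.92, SE 0.17, adjusted p = 4.76e-04). Tpi1 (chr6:124810586-124814296, minus), which interconverts the triose phosphates, read 38.4, 36.5 and 27.5 CPM in control and 84.1, 72.5 and 65.9 CPM in trSrebf1 libraries. The groups were again apart, with a 2.18-fold rise (log2 fold change 1.12, SE 0.16, adjusted p = 3.71e-05).

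Phosphofructokinase, the committed step, did not pass the test in any of its 3 subunit genes. Pfkl read 16.4, 21.1 and 25.1 CPM in control and 15.0, 24.5 and 16.1 CPM in trSrebf1 libraries, so the groups overlapped (log2 fold change -0.18, adjusted p = 0.602). For Pfkp the values were 13.8, 10.3 and 8.92 CPM against 6.63, 8.84 and 7.95 CPM, all lower with trSrebf1 (log2 fold change -0.49, adjusted p = 0.185). Pfkm stayed between 4.07 and 6.82 CPM in all 6 libraries (log2 fold change 0.10, adjusted p = 0.859).

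The enzymes that make the activator of phosphofructokinase, fructose 2,6-bisphosphate, differed from each other. Pfkfb4 (chr9:108991778-109032228, plus), a bifunctional kinase and phosphatase of that compound, had 3, 5 and 13 counts in control and 53, 66 and 60 counts in trSrebf1 libraries. All trSrebf1 libraries stood well above all control libraries, of which replicate 3 was the highest. Mean CPM went from 1.71 ± 1.19 to 13.9 ± 2.67 (SD, n = 3 each), for which the log2 fold change was 2.97 (SE 0.38, adjusted p = 1e-05). Without control replicate 3 the log2 fold change was 3.69. Pfkfb3, the strongly kinase-sided form, was low throughout, at 4.44, 3.85 and 3.99 CPM in control and 3.64, 3.03 and 2.73 CPM in trSrebf1 libraries. Its log2 fold change of -0.38 did not pass (adjusted p = 0.488).

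In the lower steps, 3 of 6 tested genes rose and none fell (50% called, beside 30.2% of all genes). Gapdh (chr6:125161715-125166467, minus), which oxidises glyceraldehyde 3-phosphate, read 45.4, 38.8 and 44.6 CPM in control and 70.6, 64.6 and 55.9 CPM in trSrebf1 libraries. The groups did not overlap, and the rise was 1.48-fold (log2 fold change 0.57, SE 0.15, adjusted p = 0.00687). Gapdh is often used as a reference gene, and its tags are uncertain here. At its 3′ end 133 other annotated genes were at least 95% identical over 100 bases or more. The 7 of them with rows summed to 311 counts in control and 526 in trSrebf1 libraries, beside 515 and 832 for Gapdh itself.

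Pkm (chr9:59656368-59679375, plus), the pyruvate kinase of most tissues, read 66.5, 66.2 and 76.5 CPM in control and 119.0, 112.9 and 92.3 CPM in trSrebf1 libraries. It rose 1.55-fold, without overlap (log2 fold change 0.63, SE 0.13, adjusted p = 0.00146). The 3′ tags do not separate its M1 and M2 splice forms. Pgam1 (chr19:41911923-41918660, plus), phosphoglycerate mutase, read 424.7, 364.8 and 296.4 CPM in control and 548.3, 426.2 and 519.1 CPM in trSrebf1 libraries. Here the gap was narrow, between 424.7 and 426.2 CPM, and the 1.38-fold rise, 0.46 on the log2 scale (SE 0.13), had an adjusted p of 0.0148. The adjusted p passed the threshold no longer when control replicate 3 (0.121), trSrebf1 replicate 1 (0.0762) or trSrebf1 replicate 3 (0.0523) was left out.

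Pgk1, the first ATP-yielding enzyme of the pathway and a classical HIF target, differed by less than the spread between libraries. It read 20.9, 18.0 and 17.1 CPM in control and 18.8, 17.7 and 18.2 CPM in trSrebf1 libraries (log2 fold change -0.03, SE 0.19, adjusted p = 0.924). Enolase also did not pass. The neuronal form Eno2 read 195.9, 194.4 and 201.9 CPM in control and 163.1, 185.1 and 169.1 CPM in trSrebf1 libraries, all lower (log2 fold change -0.20, adjusted p = 0.179). Eno1 read 8.87, 8.22 and 2.82 CPM against 5.99, 5.30 and 4.77 CPM, with control replicate 3 the lowest of all (adjusted p = 0.61). Eno1 has 5 near-identical genes, of which only Eno1b has a row. Eno1b had 19 counts in control and 31 in trSrebf1 libraries beside 78 and 70 for Eno1. Tags of the others cannot be seen, so the level of Eno1 and its ratio to Eno2 are uncertain.

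Lactate dehydrogenase fell in both its genes. Ldha (chr7:46841475-46855627, plus), the subunit that favours lactate formation and a classical HIF target, read 76.7, 85.0 and 76.8 CPM in control and 56.7, 48.5 and 45.2 CPM in trSrebf1 libraries. All trSrebf1 libraries were lower, by 1.59-fold in the mean (log2 fold change -0.66, SE 0.14, adjusted p = 0.0013). Ldhb (chr6:142490249-142507957, minus), the heart-type subunit, had 17, 20 and 17 counts in control and 6, 5 and 8 counts in trSrebf1 libraries. Its level was 3.11-fold lower, again without overlap (log2 fold change -1.61, SE 0.42, adjusted p = 0.0071). Ldha made up 94.5, 94.3 and 95.1% of the CPM of both genes in control and 97.8, 97.5 and 96.1% in trSrebf1 libraries. The difference of their log2 ratio was 0.70 (exact permutation p = 0.1, 0.35 after adjustment over the 7 pairs). Ldha has 6 near-identical genes and Ldhb has 1, none with a row. Tags of these copies cannot be seen, so the levels of Ldha and Ldhb and their ratio are uncertain.

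**Figure D3:**
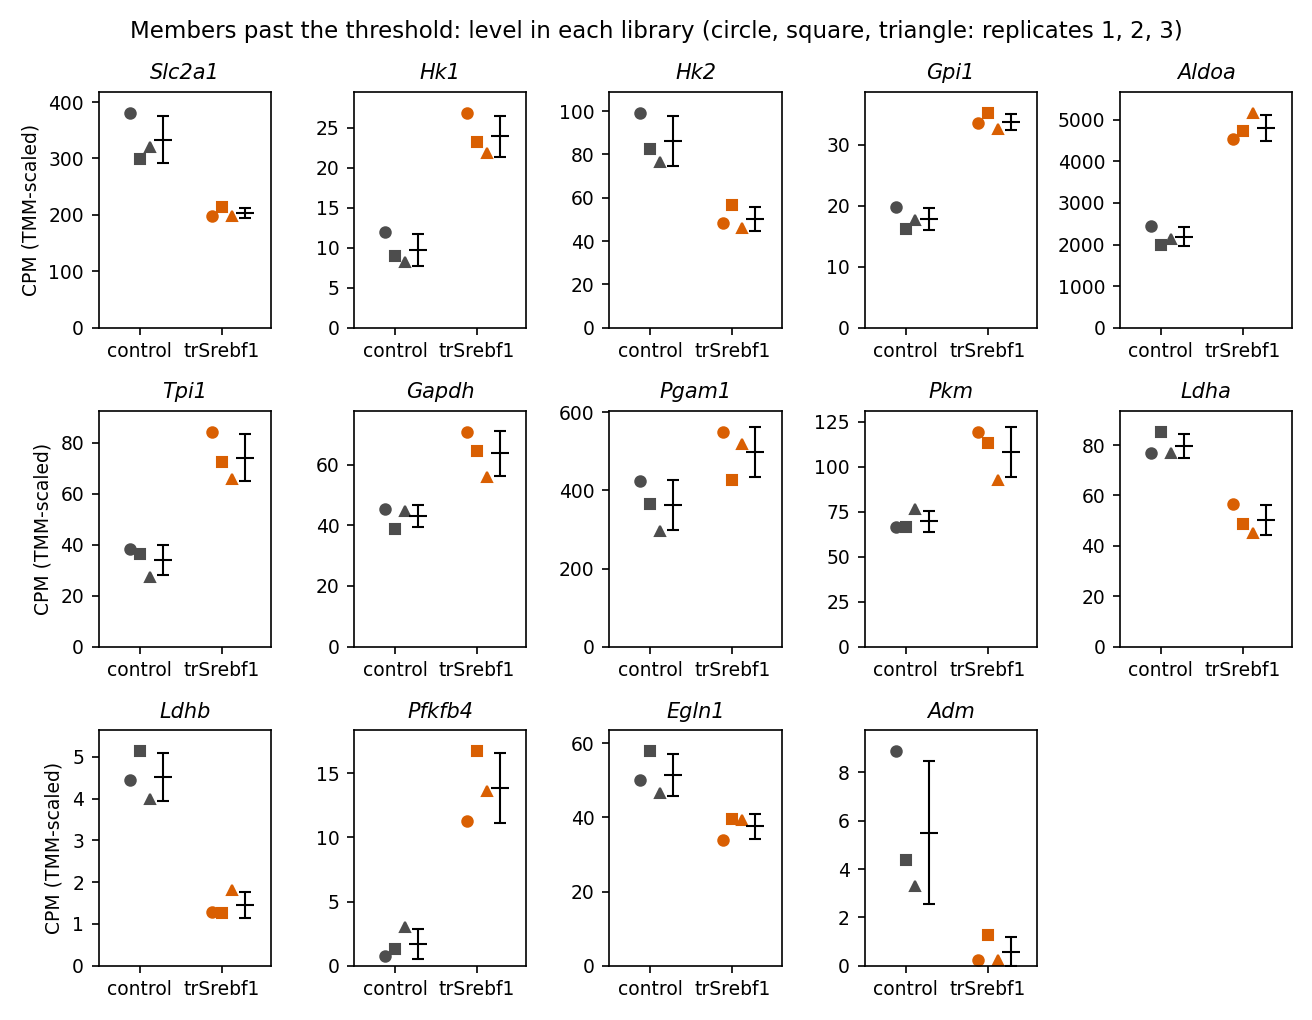
CPM (y axis, linear from 0, its own range per gene) in each of the 6 libraries for the 14 genes that passed the test, with 1 point per library and bars for mean ± SD (n = 3). In each panel the control and trSrebf1 points do not overlap, with the narrowest gap in Pgam1 (424.7 against 426.2 CPM).

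Taken as a sum, the CPM of the 17 hexokinase, glycolytic and lactate dehydrogenase genes was 3481.7, 2954.8 and 3024.6 in control and 5751.9, 5827.0 and 6261.2 in trSrebf1 libraries. Aldoa dominated that sum, in which the tags of genes with near-identical copies, such as Gapdh, are uncertain. Without Aldoa the other 16 genes summed to 1047.3, 962.8 and 889.6 CPM in control and 1204.4, 1090.5 and 1106.1 CPM in trSrebf1 libraries. The means of the reduced sum were 966.5 and 1133.7 CPM. Its largest term was Pgam1, with means of 362.0 CPM in control and 497.8 CPM with trSrebf1. Most of the rise in the reduced sum thus came from Pgam1, whose call was lost when some libraries were left out. Of the 17 genes, 16 were tested, 7 were higher and 3 lower (62.5% called, beside 30.2% of all genes).

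Export of lactate and restraint of pyruvate oxidation passed the test in none of 4 genes. Slc16a3 (Mct4), the exporter of glycolytic cells, read 82.4, 61.9 and 82.4 CPM in control and 67.8, 68.2 and 83.4 CPM in trSrebf1 libraries (log2 fold change -0.05, adjusted p = 0.847). Slc16a1 (Mct1), which moves lactate in either direction, scattered in both groups, at 18.8, 18.0 and 6.34 CPM and at 27.8, 7.57 and 22.3 CPM (adjusted p = 0.636). The kinases were low, Pdk1 at 1.28 to 4.71 CPM and Pdk3 at 0.783 to 3.76 CPM over all 6 libraries, with overlapping groups. Their log2 fold changes were 0.46 (adjusted p = 0.482) and 0.41 (adjusted p = 0.591), and that of Pdk3 was 0.03 without control replicate 1 and 1.04 without control replicate 3.

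Of the 8 genes of the hypoxia response, 6 were tested, and 2 of those, Adm and Egln1, fell. That share of 33.3% called was close to the 30.2% of all genes. Adm (chr7:110627661-110629820, plus) encodes adrenomedullin, a secreted vasodilator peptide and a classical HIF target. It had 34, 17 and 14 counts in control and 1, 5 and 1 counts in trSrebf1 libraries. Every control library was higher than every trSrebf1 library, and the spread within control was wide. Mean CPM was 5.51 ± 2.96 (SD, n = 3) in control and 0.568 ± 0.602 (SD, n = 3) with trSrebf1, and the log2 fold change was -3.27 (SE 0.63, adjusted p = 5.97e-04). Without trSrebf1 replicate 2, which held 5 of the 7 counts, it was -4.45.

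Egln1 (Phd2, chr8:124908587-124949324, minus) is the main prolyl hydroxylase that marks HIF alpha for destruction, and is itself a HIF target. Its CPM was 50.1, 57.8 and 46.7 in control and 33.8, 39.6 and 39.3 in trSrebf1 libraries. The groups did not overlap, and the level was 1.37-fold lower (log2 fold change -0.46, SE 0.15, adjusted p = 0.0314). The call ended when trSrebf1 replicate 1 (adjusted p = 0.129), control replicate 2 (0.142) or trSrebf1 replicate 3 (0.0559) was left out. Egln3, the strongly inducible hydroxylase, had 2, 2 and 3 counts in control and 10, 3 and 5 in trSrebf1 libraries and was not tested.

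Hif1a (chr12:73901375-73947530, plus), the oxygen-regulated subunit, stood at 174.8, 184.1 and 152.3 CPM in control and 112.1, 46.2 and 104.8 CPM in trSrebf1 libraries. All trSrebf1 libraries were lower, and the second was far below the other two. The level was 1.94-fold lower in the mean, with a log2 fold change of -0.95 (SE 0.33), and the difference did not pass the threshold (adjusted p = 0.0797, edgeR). It passed without trSrebf1 replicate 2, at a log2 fold change of -0.65 (adjusted p = 0.00142). It also passed with upper-quartile factors (0.0392), with no filter on low counts (0.00122), with DESeq2 (0.0476) and with limma-voom (0.00404). HIF activity is set largely by the stability of the alpha protein, which these counts do not measure.

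Bnip3 and Bnip3l, receptors for removal of mitochondria, did not pass. Bnip3 read 30.0, 23.1 and 17.8 CPM in control and 18.0, 22.2 and 14.8 CPM in trSrebf1 libraries (log2 fold change -0.37, adjusted p = 0.239). Bnip3l ran from 9.86 to 11.6 CPM in control and read 9.42, 4.80 and 10.7 CPM in trSrebf1 libraries (adjusted p = 0.35). Ndrg1, a stress-responsive gene induced by hypoxia, overlapped between the groups at 12.4 to 24.9 CPM and 15.0 to 24.0 CPM (log2 fold change -0.01, adjusted p = 0.98). Ankrd37 had 1 count in all 6 libraries together.

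Summed over the 8 hypoxia genes, CPM was 295.6, 306.5 and 243.2 in control and 199.7, 132.3 and 185.9 in trSrebf1 libraries, with Hif1a as the largest term. The sum had means of 281.8 and 172.6 CPM, and Hif1a alone had means of 170.4 and 87.7 CPM. Most of the fall in the sum thus came from Hif1a, which did not pass the test.

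**Figure D4:**
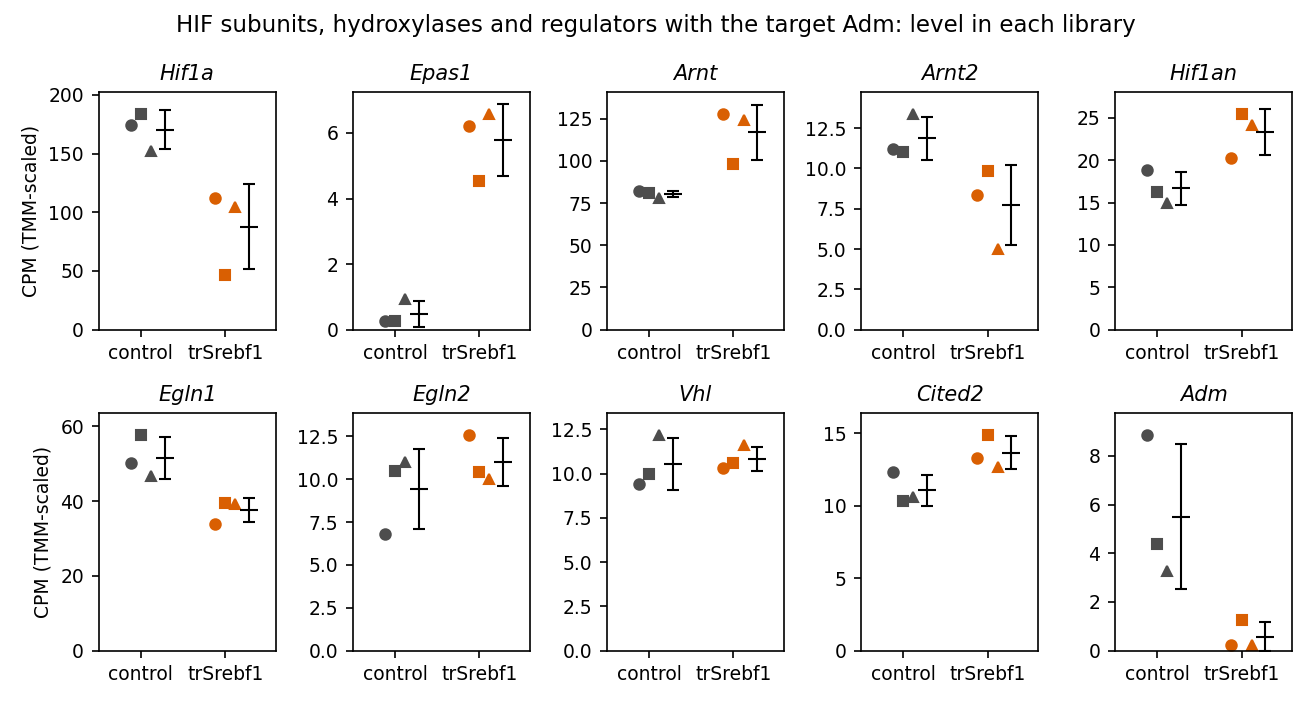
CPM (y axis, linear from 0, its own range per gene) in each library for 9 genes of the HIF system and for the target Adm, with 1 point per library and bars for mean ± SD (n = 3). Hif1a is lower in each trSrebf1 library (46.2 to 112.1 CPM) than in control (152.3 to 184.1 CPM), while Epas1 and Arnt are higher in each trSrebf1 library.

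Other genes of glucose use and hypoxia were read from 4 lists, in which 75 genes were listed, 69 had a row and 49 were tested. Of the 49, 14 were higher and 5 lower (38.8% called, beside 30.2% of all genes). Among other genes of glycolysis and sugar entry, 5 of 15 tested were higher and 1 lower (40% called). Slc2a6, a transporter of the same family as Slc2a1 that resides largely on lysosomes, read 0.261, 0.257 and 1.17 CPM in control and 34.7, 28.5 and 35.0 CPM in trSrebf1 libraries. The groups were widely apart, by 5.74 on the log2 scale (SE 0.36, adjusted p = 1.55e-09), or 6.81 without control replicate 3. Slc2a4 (Glut4), the insulin-responsive transporter, read 0.261, 2.31 and 1.41 CPM against 12.2, 10.6 and 13.6 CPM (log2 fold change 3.16, SE 0.41, adjusted p = 1.27e-05, or 3.77 without control replicate 2). Slc2a8, an intracellular transporter, read 4.17, 4.88 and 6.34 CPM against 16.7, 19.9 and 26.1 CPM (log2 fold change 2.01, SE 0.27, adjusted p = 1.33e-05). These 3 transporters were thus higher in each trSrebf1 library, while Slc2a1 was lower. Slc2a10, of the same list, did not pass, with means of 61.6 CPM in control and 56.3 CPM with trSrebf1 (log2 fold change -0.13, adjusted p = 0.539, edgeR). Pgam2, the muscle-type mutase, had 0, 0 and 1 counts in control and 44, 21 and 45 in trSrebf1 libraries, a ratio of summed counts, relative to library size, of 101.2 with a 95% exact interval from 17.8 to 4032 that covers counting error only (adjusted p = 1.96e-06). Its fitted log2 fold change of 6.21 was 8.12 without control replicate 3 and 5.51 with limma-voom, and depends on how zero counts are handled.

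For the entry of pyruvate into mitochondria, 1 of 8 tested genes was higher and none lower at the threshold (12.5% called, beside 30.2% of all genes). That gene was Mpc1, a subunit of the mitochondrial pyruvate carrier, at 103.6, 93.5 and 94.6 CPM in control and 160.1, 119.2 and 173.9 CPM in trSrebf1 libraries. It did not overlap between the groups, and rose 1.55-fold (log2 fold change 0.64, SE 0.14, adjusted p = 0.00161).

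In the HIF system beside Hif1a, 2 of 7 tested genes rose (28.6% called, close to the 30.2% of all genes). Epas1 (HIF-2 alpha, chr17:86753700-86833410, plus), the other main alpha subunit, had 1, 1 and 4 counts in control and 29, 18 and 29 counts in trSrebf1 libraries. All trSrebf1 libraries were above all control libraries, though levels stayed low, at 4.54 to 6.59 CPM. The log2 fold change was 3.46 (SE 0.53, adjusted p = 7.2e-05), or 4.32 without control replicate 3. Arnt, the partner of both alpha subunits, read 81.9, 81.1 and 78.2 CPM in control and 128.0, 98.0 and 124.5 CPM in trSrebf1 libraries, a 1.45-fold rise (log2 fold change 0.54, SE 0.13, adjusted p = 0.00372). Hif1an (0.48, adjusted p = 0.0679) and Arnt2 (-0.63, adjusted p = 0.103) did not pass, and Vhl, Egln2 and Cited2 had log2 fold changes of 0.04, 0.22 and 0.30.

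Among 19 tested genes of a further list of hypoxia targets, 6 rose and 4 fell (31.6% and 21.1%, beside 17.2% and 13% of all genes). Vegfa, the endothelial growth factor, read 36.0, 49.3 and 46.7 CPM in control and 135.7, 127.8 and 125.7 CPM in trSrebf1 libraries, a 2.95-fold rise (log2 fold change 1.56, SE 0.14, adjusted p = 1.36e-07). P4ha1, a collagen prolyl hydroxylase subunit, read 407.0, 389.5 and 440.1 CPM against 697.0, 793.8 and 801.1 CPM, a 1.85-fold rise (log2 fold change 0.89, SE 0.10, adjusted p = 3.65e-06). Both genes separated the groups and moved opposite to Adm. Wsb1, which encodes a ubiquitin ligase subunit, read 19.8, 19.8 and 16.4 CPM against 6.63, 5.30 and 7.73 CPM (log2 fold change -1.50, SE 0.24, adjusted p = 1.08e-04). Tmem45a read 19.3, 17.2 and 12.7 CPM against 6.42, 3.28 and 7.05 CPM (log2 fold change -1.53, SE 0.29, adjusted p = 5.46e-04). Calls thus ran in both directions in this list, as they did among all genes tested, and 9 of the 19 genes did not pass.

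**Figure D5:**
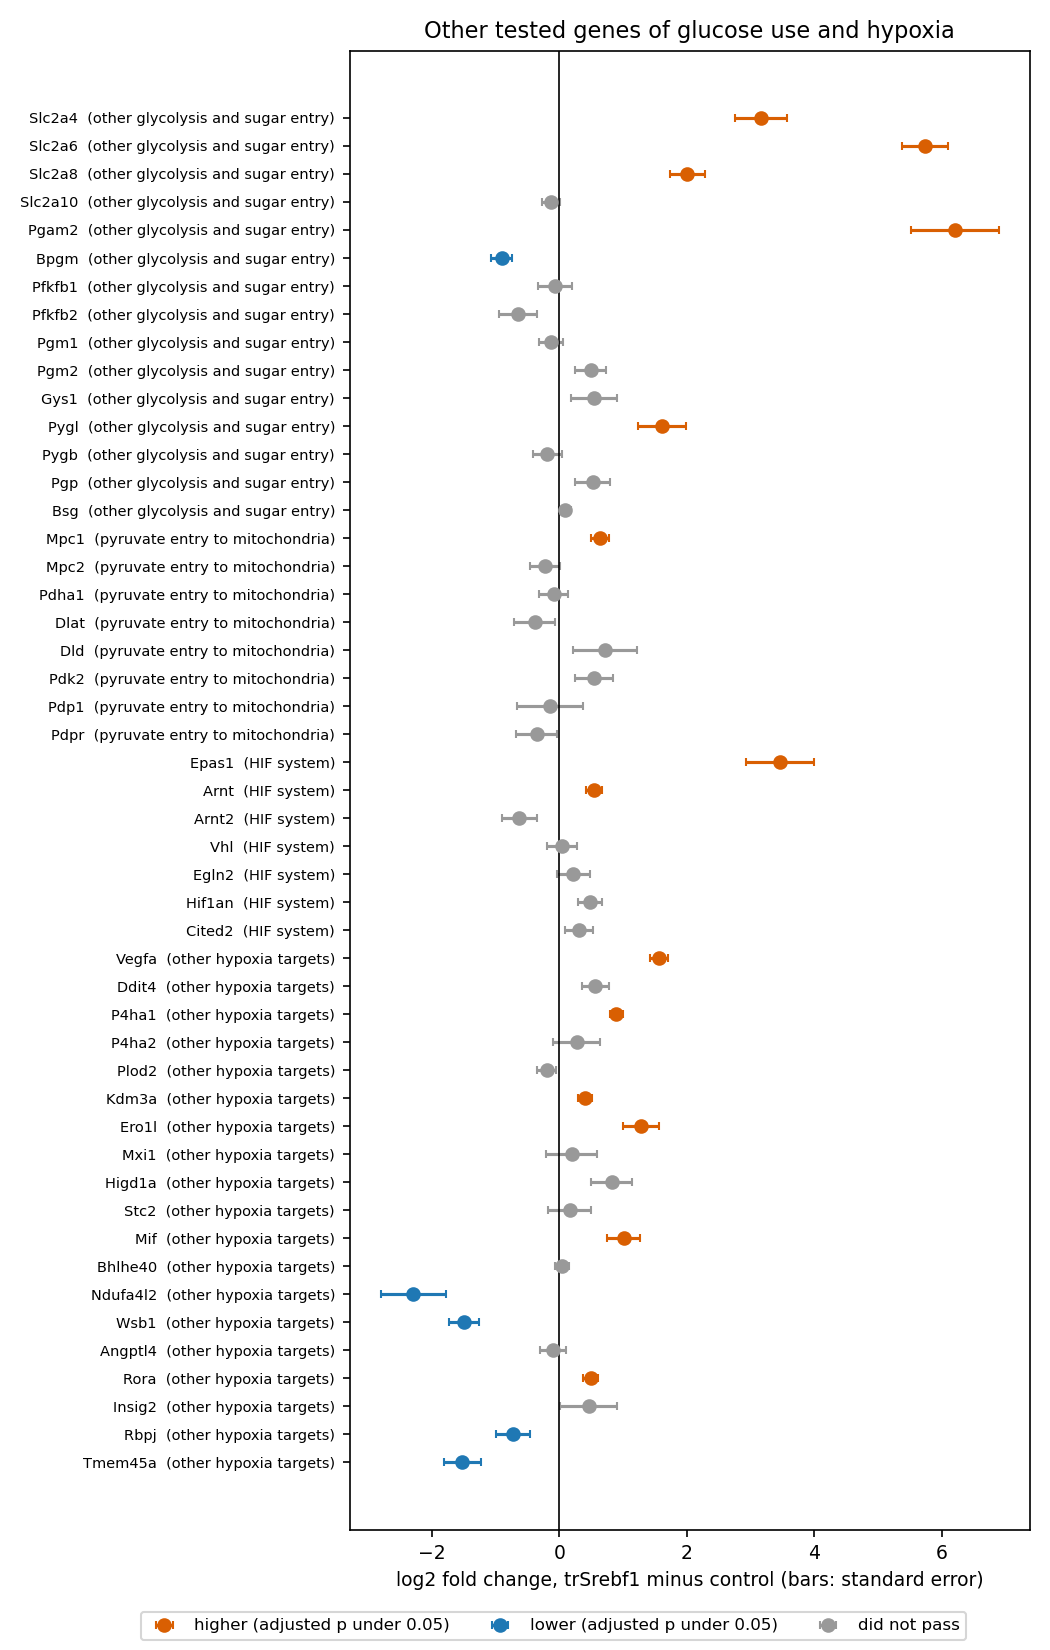
Log2 fold change (trSrebf1 minus control, x axis) of the 49 tested genes in the 4 further lists, with bars of 1 standard error and colours for the call at an adjusted p of 0.05. Calls run in both directions among hypoxia targets, and the widest differences are Pgam2 (6.21) and Slc2a6 (5.74).

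Sequence copies and overlapping genes bear on how tags were assigned. Of the 33 genes, 9 had at least 1 other annotated gene near-identical at the 3′ end, namely Gpi1, Aldoa, Tpi1, Gapdh, Eno1, Pkm, Ldha, Ldhb and Bnip3. For Aldoa the copy with a row, Aldoart1, had 20 and 28 counts beside 26186 and 62692 for Aldoa itself. Exons of 12 of the 33 genes overlapped an annotated gene on the opposite strand, among them Slc2a1, Hk1, Gpi1, Aldoa, Tpi1, Gapdh and Hif1a, and 3 genes (Pfkm, Pkm, Hif1a) overlapped a gene on the same strand. Whether the counting used strand is not given in the sources used here, so tags of such partners could not be told apart.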

How the data were processed

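3′SAGE-seq libraries of sorted mouse lung fibroblasts were analysed, 3 control and 3 trSrebf1. The deposited files hold raw counts of tags per gene symbol made by the authors. Bowtie2 2.2.5 and the build mm10 are named in the submitters' processing notes, with no role stated. The counting tool, its annotation and its treatment of strand were not given in the sources used here. Library totals ran from 3675146 to 4688196 counts.

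The test across genes was that of edgeR 4.0.16 under R 4.3.3 (TMM factors, filterByExpr with a minimum count of 10 and a minimum total of 15, robust quasi-likelihood fit on group, two-sided, Benjamini-Hochberg over all 10194 genes tested, threshold 0.05). The script was tested on simulated data. CPM are TMM-scaled. Ratios of 2 genes used CPM plus 0.5 and exact permutation tests. Intervals of count ratios are 95% exact. A group at 0 was set to 3 counts over the group. The 33 genes and all lists were chosen with earlier results of these data known. Called genes and genes of an enzyme pair were given per library. From each further list at most 4 called genes with the smallest p were named in the report. Promoters came from RefSeq (GRCm38.p6). Gene coordinates are those of GENCODE on GRCm38 (mm10), and its transcripts were searched for copies of the last 300 bases with blastn 2.17.0. Alternatives were upper-quartile and no factors, no filter, a 5 CPM filter, DESeq2 1.42.0, limma-voom (limma 3.58.1), leaving out Ctsd (65520.2 to 71351.7 CPM in trSrebf1 libraries), a replicate block and leaving out each library.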

Additional observations from a re-analysis of the deposited data

How the results depend on the processing

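Under 14 alternatives, 12 of the 14 called genes kept their call in every alternative in which they were tested, and 2 (Pgam1, Egln1) lost it in some. Of 15 genes tested but uncalled, Hif1a gained a call in some. With no filter on low counts 9 of the 33 genes were higher, so a gene left out of the main test was called there. Adm and Ldhb were not tested under the 5 CPM filter. Across alternatives 7 to 9 of the 33 genes were higher and 4 to 7 lower, and 1534 to 1977 of all genes were higher and 1061 to 1649 lower. Replicate numbers did not pair the libraries (same-number correlations of deviations from the group mean 0.01, -0.11 and -0.05), and not every library correlated best with its own number. With the replicate block 8 of the 33 genes were higher and 6 lower, as without it, and 1646 and 1174 of all genes were. Upper-quartile factors moved the median log2 fold change of all genes to -0.10 and unscaled totals to -0.08. Among the 33 genes, signs reversed in 4 uncalled ones. Pfkm was -0.02, -0.02 and 0.00 without control replicate 1, trSrebf1 replicate 2 and trSrebf1 replicate 3 (range over left-out libraries -0.02 to 0.31). Pgk1 was 0.06 without control replicate 1. Slc16a3 was 0.02, 0.00, 0.01 and 0.00 without control replicates 1 and 3 and trSrebf1 replicates 1 and 2 (range -0.18 to 0.02). Ndrg1 was 0.03 with limma-voom, 0.00 with the replicate block, and 0.03, 0.23, 0.05 and 0.13 without control replicates 1 and 2 and trSrebf1 replicates 2 and 3 (range -0.26 to 0.23). The cause was not tested. Among called genes, counts under about 10 in some libraries limit Adm, Ldhb, Pfkfb4, Epas1, Slc2a6, Slc2a4, Pgam2, Pygl and Ndufa4l2.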

Other observations

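The further lists held called genes outside the naming rule, given here after their values were seen. Pygl, liver glycogen phosphorylase, read 6.78, 1.80 and 3.05 CPM in control and 10.1, 15.1 and 10.5 CPM in trSrebf1 libraries (log2 fold change 1.61, adjusted p = 0.00336, or 2.26 without control replicate 1). Bpgm, which makes and breaks 2,3-bisphosphoglycerate, was the one gene of its list that fell, with 123.1, 205.6 and 175.3 CPM against 81.8, 101.8 and 85.5 CPM (log2 fold change -0.91, adjusted p = 4.75e-04). Ero1l, an oxidase of the endoplasmic reticulum, read 7.04, 6.68 and 4.22 CPM against 15.8, 10.6 and 16.8 CPM (log2 fold change 1.28, adjusted p = 0.00202). All 3 genes separated the groups and kept their calls under all 14 alternatives.

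Mif, a secreted cytokine, rose with a log2 fold change of 1.01 (adjusted p = 0.00638) and Rora, a nuclear receptor, with 0.49 (adjusted p = 0.00407). Kdm3a, a histone demethylase, rose by 0.40 (adjusted p = 0.0116) and lost its call under 4 of the 14 alternatives. Ndufa4l2, a mitochondrial protein induced by HIF, had 14, 19 and 33 counts in control and 4, 8 and 2 counts in trSrebf1 libraries (log2 fold change -2.30, adjusted p = 0.00211, or -2.99 without trSrebf1 replicate 2). Its libraries did not overlap. Rbpj, the Notch effector, had a log2 fold change of -0.73 (adjusted p = 0.0432) and lost its call under 8 of 14. Fbp2, the muscle-type fructose bisphosphatase, which works against phosphofructokinase, had no counts in control and 10, 8 and 6 counts in trSrebf1 libraries, at least 7.36-fold higher against 3 counts over the control group, and was not tested.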
